A study of Mus musculus with 4 samples.

Results

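A set of 10 genes of the transforming growth factor β (TGF-β) pathway were followed in mouse induced regulatory T (iTreg) cells cultured with or without added iron. They encode the receptors (Tgfbr1, Tgfbr2, Tgfbr3), the SMAD proteins that carry the signal to the nucleus (Smad2, Smad3, Smad4) and the inhibitors that restrain it (Smad7, Ski, Skil, Smurf1). They were chosen by name, with earlier results of these data known. All 10 were found by Ensembl ID among the 47729 gene rows of the count table. The mice were C57BL/6, and the labels give spleen as the tissue, whereas the methods for naive T cells name spleen and lymph nodes. Naive CD4 T cells were activated through CD3 and CD28 in medium that drives iTreg cells. It held IL-2 at 100 U/mL, TGF-β at 5 ng/mL and antibodies against IL-4 and IFNγ at 5 µg/mL each. The FeSO4 group also received ferrous sulfate at 50 µM and the Mock group received PBS, both for 4 days. There were 2 libraries per group. The methods describe them as pairs from independent experiments, and the labels number them 1 and 2 without saying which belong together.

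TGF-β is the cytokine that makes activated CD4 T cells switch on Foxp3, the defining transcription factor of Treg cells, and every culture here received it. The ligand binds the type II receptor TGFBR2, which then activates the type I receptor kinase TGFBR1. Betaglycan, the product of Tgfbr3, is a co-receptor that presents the ligand. TGFBR1 phosphorylates SMAD2 and SMAD3, which join SMAD4 and enter the nucleus. SKI and SKIL (SnoN) bind these SMADs on DNA and repress their targets. SMAD7 occupies the receptor and recruits the ubiquitin ligase SMURF1. Skil and Smad7 are themselves induced by the signal, which closes a negative feedback loop.

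Each library held between 35183187 and 40859178 reads in gene rows. The 10 genes had between 1077 and 20962 reads per library, so none was near the limit that a count of 0 allows (3 reads, 0.0717 to 0.0876 CPM). CPM are counts scaled to the library size after TMM, a trimmed mean of log ratios. The 7 CD4 T cell markers summed to between 4133 and 4564 CPM. The CD8 T cell markers summed to between 9.04 and 11.02 CPM and the B cell markers to between 2.38 and 3.38 CPM, and the NK cell markers Ncr1, Klrb1c and Klra8 had no read. Of the 5 myeloid markers, Mock replicate 1 held 185 reads and no other library more than 36. The collagen genes Col1a1 and Col3a1 had 54 and 68 reads in that library and at most 12 and 1 in the others. Their part in the results was not tested, and the number of genes called is given without each library in turn. In bulk RNA, fewer cells of a type and less RNA per cell cannot be told apart.

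Per kilobase of exon, Ski was the most abundant of the 10 transcripts, at 80.5 CPM per kilobase on average over the 4 libraries. Smad7 (33.1), Tgfbr2 (32.0) and Skil (27.8) followed. Tgfbr1 (19.8) and Smad4 (18.8) came next, then Smad2 (14.2), Smurf1 (11.6) and Smad3 (9.18). The co-receptor gene Tgfbr3 was lowest at 4.95 CPM per kilobase, so that Ski lay 16.3-fold above it. The library ranges of Smad7 and Tgfbr2, of Tgfbr2 and Skil, of Tgfbr1 and Smad4, and of Smad2 and Smurf1 overlapped over the 4 libraries, so these neighbors in the order did not differ beyond that spread. Within each library, Smad7 was nonetheless above Tgfbr2, Tgfbr2 above Skil and Smad2 above Smurf1, and only Tgfbr1 and Smad4 changed places. The ranges of the other neighbors did not overlap. Exon lengths came from the GENCODE M1 annotation, whereas the annotation used for the counts is not given. The order with other exon lengths was not tested. Among the inhibitors, the 3 genes Ski, Smad7 and Skil thus exceeded Smad2 and Smad3, the substrates of the receptor, on this scale.

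**Figure D1:**
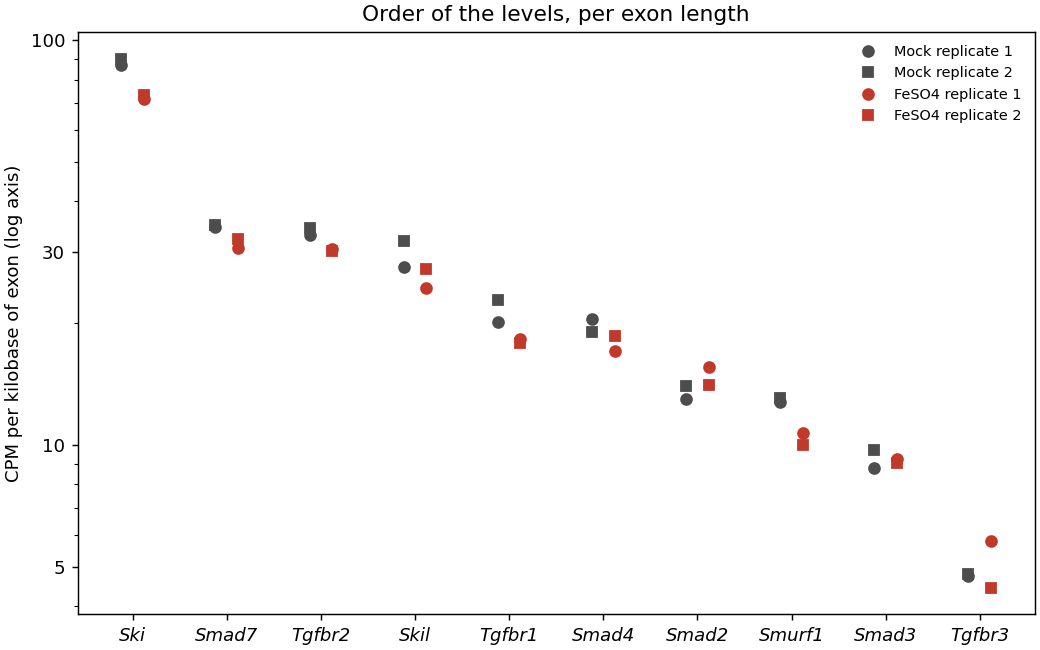
Levels of the 10 genes in CPM per kilobase of exon (log axis), ordered by the mean of the 4 libraries, with 1 point per library (circles, replicate 1; squares, replicate 2; gray, Mock; red, FeSO4). Ski stands above the rest with all libraries over 71 CPM per kilobase, and Tgfbr3 lies below 6 in every library.

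The first comparison asked whether iron changed the transcripts of the pathway's core. With FeSO4, 3 of the 10 genes fell and 0 rose (edgeR's quasi-likelihood test, called where the Benjamini-Hochberg adjusted p over 13732 genes was below 0.05). At an unadjusted p under 0.05, and with DESeq2 or limma-voom at the adjusted one, 0 of the 10 rose as well. The 3 that fell were Smurf1, Ski and Tgfbr1, which were 0.80, 0.82 and 0.84 times their Mock level. Over all tested genes, 9.17% were called lower, 10.9% higher and 20.0% in either direction. In 7 of the 10 genes both FeSO4 libraries lay below both Mock libraries, in 1 they lay above and in 2 they overlapped. Over all tested genes the libraries were apart in 59.5%, with FeSO4 lower in 29.4% and higher in 30.1%. The 10 genes were also among the more strongly read ones, at the 57.3rd to 97.5th percentile of mean CPM. The log2 fold change lay below 0 in 8 of the 10 genes, against 50.1% of all tested genes. The median over the 10 was -0.15, and over all tested genes it was -0.00052. With library size only in place of TMM, 6 of the 10 were called lower, and the split over all tested genes turned from 1491 higher and 1259 lower to 980 higher and 1810 lower. With no filter on low counts 1 of the 10 was called, and none passed the study's own threshold, which asks for an absolute log2 fold change of 0.5. The number was 4 without Mock replicate 1, 2 without Mock replicate 2, 3 without FeSO4 replicate 1 and 2 without FeSO4 replicate 2.

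**Figure D2:**
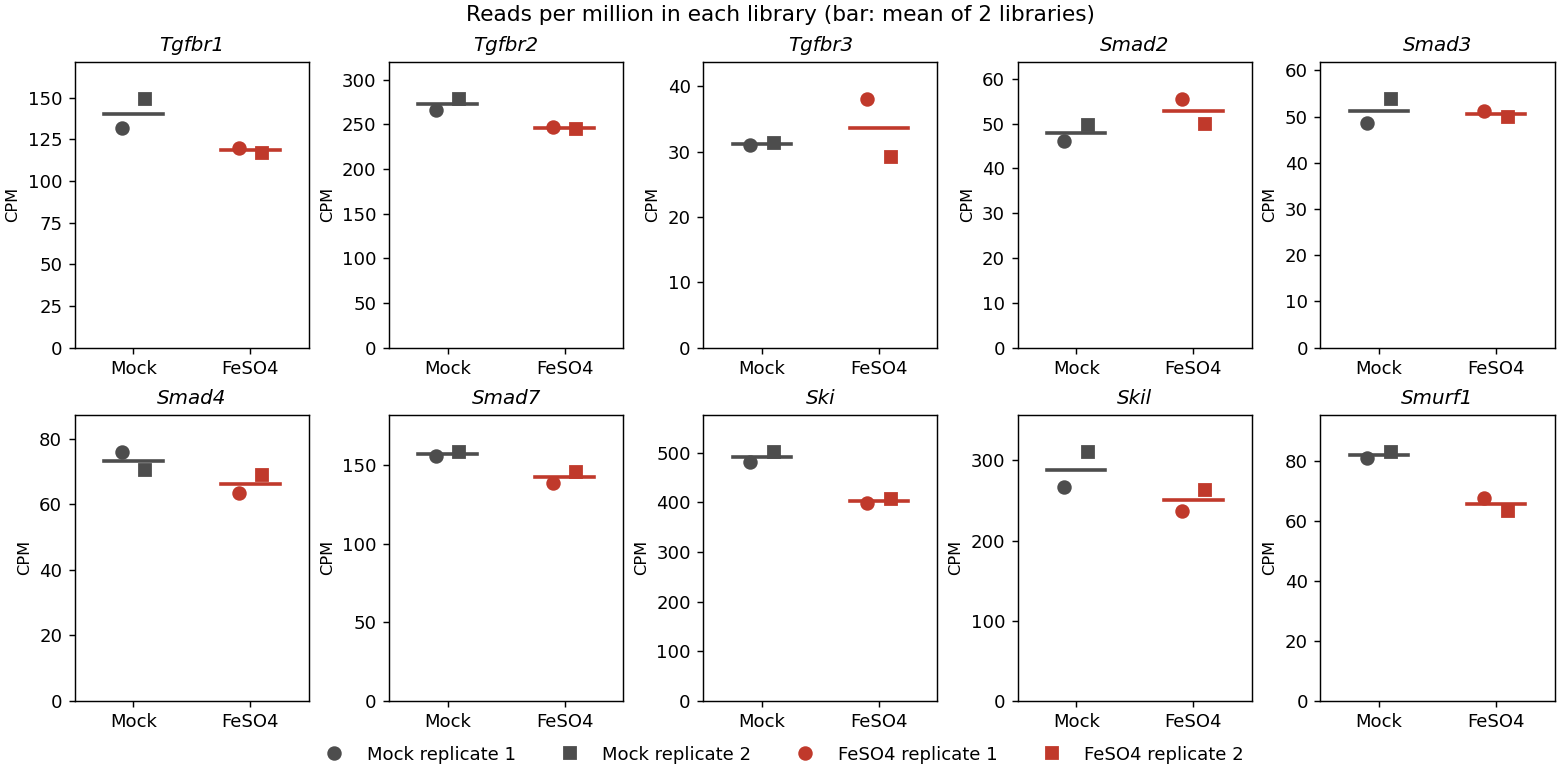
CPM of each of the 10 genes in the 4 libraries, on axes that start at 0, with circles for replicate 1, squares for replicate 2 and a bar at the mean of each group (gray, Mock; red, FeSO4). For Ski and Smurf1, both red points lie well below both gray ones, whereas for Smad3 and Tgfbr3 the points of the groups overlap.

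Ski encodes a nuclear repressor of SMAD complexes. It stood at 483 and 501 CPM in Mock replicates 1 and 2 and at 399 and 408 CPM in FeSO4 replicates 1 and 2. Both FeSO4 libraries lay below both Mock libraries, with a gap several times the spread within a group. The log2 fold change was -0.29 ± 0.06 (SE, n = 2 per group, edgeR adjusted p = 0.00279). Ski (ENSMUSG00000029050) lies on the minus strand of chromosome 4 at 155154075 to 155222535 (GRCm38). It had the smallest p of the 10 and was the only one called under every alternative that kept the adjusted p of 0.05, each library left out included, with log2 fold changes from -0.35 to -0.26.

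Skil encodes SnoN, the close relative of Ski. It was at 267 and 310 CPM in Mock and at 237 and 263 CPM in FeSO4. The libraries of the groups did not overlap, but FeSO4 replicate 2 nearly reached Mock replicate 1, and the Mock libraries differed from each other by more than that. Its log2 fold change of -0.21 ± 0.08 (SE, n = 2 per group) did not pass (edgeR adjusted p = 0.0663). With the replicate number as a block it was -0.20 and passed (edgeR adjusted p = 0.00872). It ranged from -0.32 without Mock replicate 1 to -0.093 without Mock replicate 2. With library size only it was -0.27, with an adjusted p of 0.0193, and Skil passed in 6 of the 14 fits made. Skil (ENSMUSG00000027660) lies on the plus strand of chromosome 3 at 31095058 to 31122923 (GRCm38).

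Smurf1, the ubiquitin ligase that SMAD7 brings to the receptor, had the largest change of the 10 genes in the main fit. Without FeSO4 replicate 2, Ski (-0.301) and Skil (-0.284) had larger log2 fold changes than Smurf1 (-0.276). Smurf1 was at 81.0 and 82.9 CPM in Mock and at 67.7 and 63.4 CPM in FeSO4. The FeSO4 libraries lay together below the Mock libraries. The log2 fold change was -0.32 ± 0.07 (SE, n = 2 per group, edgeR adjusted p = 0.00589). The adjusted p was 0.0542 without FeSO4 replicate 2 and 0.0584 with no filter on low counts. Smurf1 (ENSMUSG00000038780) lies on the minus strand of chromosome 5 at 144876495 to 144965899 (GRCm38).

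Smad7, the inhibitory SMAD, was at 156 and 158 CPM in Mock and at 139 and 146 CPM in FeSO4. Both FeSO4 libraries were below both Mock libraries, by a small margin. A log2 fold change of -0.14 ± 0.07 (SE, n = 2 per group) did not pass (edgeR adjusted p = 0.140), though with library size only it was -0.21 with an adjusted p of 0.0324. Each of the 4 inhibitor genes thus had both FeSO4 libraries below both Mock libraries, and 2 of the 4 were called, against 29.4% and 9.17% of all tested genes.

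Among the receptors, Tgfbr1 fell and Tgfbr2 did not pass the test. Tgfbr1, the type I receptor kinase, was at 132 and 149 CPM in Mock and at 120 and 117 CPM in FeSO4. The FeSO4 libraries were nearly equal and lay below both Mock libraries, which were further apart. The log2 fold change was -0.25 ± 0.07 (SE, n = 2 per group, edgeR adjusted p = 0.0236). This call rested on Mock replicate 2, the highest library. Without it the log2 fold change was -0.16 with an adjusted p of 0.199. Without FeSO4 replicate 2 the call was also lost, at a log2 fold change of -0.23. Tgfbr1 (ENSMUSG00000007613) lies on the plus strand of chromosome 4 at 47353222 to 47414926 (GRCm38).

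Tgfbr2, the ligand-binding type II receptor, was at 267 and 278 CPM in Mock and at 247 and 244 CPM in FeSO4. All libraries of FeSO4 were below those of Mock, and the log2 fold change of -0.15 ± 0.06 (SE, n = 2 per group) did not pass (edgeR adjusted p = 0.103). With library size only it was -0.21, with an adjusted p of 0.0199. Tgfbr2 (ENSMUSG00000032440) lies on the minus strand of chromosome 9 at 116087695 to 116175363 (GRCm38). Tgfbr3, the betaglycan gene, was at 31.1 and 31.3 CPM in Mock and at 38.0 and 29.1 CPM in FeSO4. The FeSO4 libraries lay on either side of the Mock libraries. Its log2 fold change was 0.10 ± 0.11 (SE, n = 2 per group, edgeR adjusted p = 0.583), and it turned to -0.10 without FeSO4 replicate 1. Tgfbr3 (ENSMUSG00000029287) lies on the minus strand of chromosome 5 at 107106567 to 107289629 (GRCm38).

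None of the 3 SMADs that carry the signal was called in either direction by edgeR's quasi-likelihood test, at an adjusted p or at an unadjusted p under 0.05. Smad2, a receptor substrate, was at 46.1 and 49.6 CPM in Mock and at 55.4 and 50.0 CPM in FeSO4. FeSO4 replicate 2 was almost level with Mock replicate 2, and the log2 fold change was 0.14 ± 0.09 (SE, n = 2 per group, edgeR adjusted p = 0.283). It ranged from 0.064 without FeSO4 replicate 1 to 0.21 without FeSO4 replicate 2.

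Smad3, the other receptor substrate and the one that binds DNA directly, was at 48.6 and 53.7 CPM in Mock and at 51.2 and 50.0 CPM in FeSO4. Both FeSO4 libraries fell between the Mock libraries, and the log2 fold change was -0.017 ± 0.084 (SE, n = 2 per group, edgeR adjusted p = 0.921). Smad3 (ENSMUSG00000032402) lies on the minus strand of chromosome 9 at 63646766 to 63757994 (GRCm38). Smad4, the partner that all receptor-activated SMADs share, was at 75.9 and 70.4 CPM in Mock and at 63.4 and 69.0 CPM in FeSO4. The groups were apart by a narrow margin, and the log2 fold change of -0.14 ± 0.08 (SE, n = 2 per group) did not pass (edgeR adjusted p = 0.224). It ranged from -0.21 without FeSO4 replicate 2 to -0.084 without FeSO4 replicate 1. Smad2, Smad4 and Smad7 lie on chromosome 18.

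**Figure D3:**
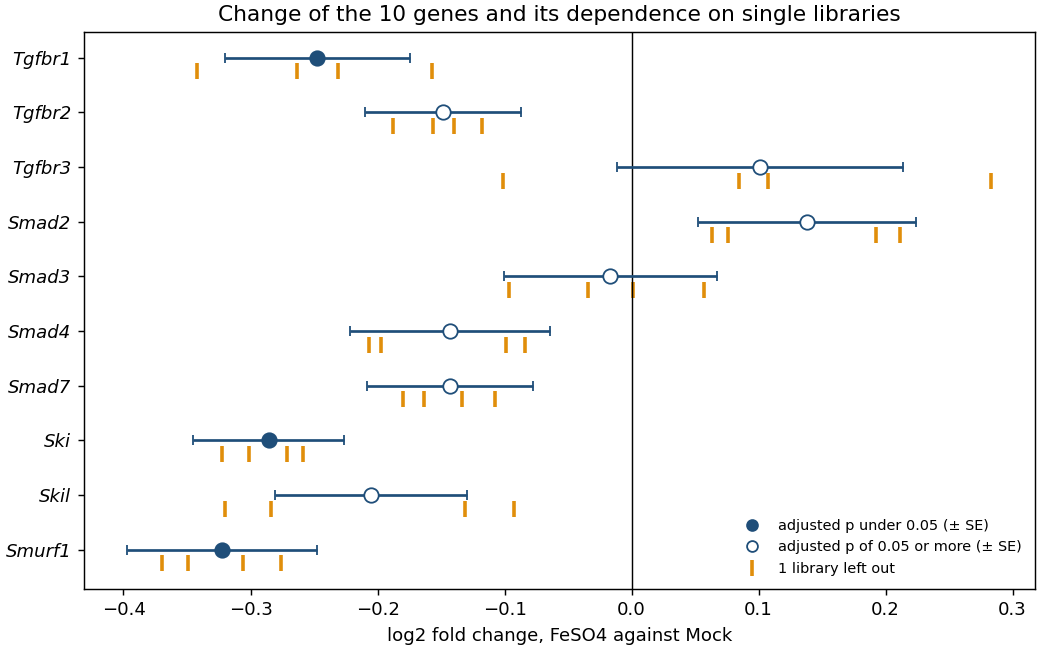
Log2 fold change (FeSO4 against Mock) of each gene with its SE as a bar, filled where the adjusted p was under 0.05, and orange ticks for the value with 1 library left out. The ticks of Ski and Smurf1 stay at or below -0.26, whereas those of Tgfbr3 and Smad3 fall on both sides of 0.

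Ratios of 2 genes within a library do not depend on how libraries are scaled. Smad2 and Smad3 were close to equal in reads. The Smad3 to Smad2 ratio was 1.06 and 1.08 in Mock and 0.925 and 0.999 in FeSO4, so that it was lower in both FeSO4 libraries. The log2 ratio differed by -0.15, and by -0.21 to -0.097 with 1 library left out, the smallest without FeSO4 replicate 1. The Tgfbr2 to Tgfbr1 ratio was 2.02 and 1.87 in Mock and 2.07 and 2.09 in FeSO4, higher in both FeSO4 libraries. Its log2 ratio differed by 0.097, which was 0.039 without Mock replicate 2 and 0.154 without Mock replicate 1. With 2 libraries per group, the smallest p that an exact two-sided permutation test can give is 0.333, which both ratios reached, so this test cannot pass 0.05 for either.

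The Smad7 to Smad4 ratio was 2.05 and 2.25 in Mock and 2.19 and 2.11 in FeSO4 and overlapped (exact permutation p = 1). The Skil to Ski ratio was 0.553 and 0.619 in Mock and 0.593 and 0.646 in FeSO4, and these libraries overlapped too (exact permutation p = 0.667). The relation between each of these pairs therefore moved by less than the libraries of a group differed, while the level of Ski itself fell.

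Over the 8512 tested genes whose mean reached 10 CPM, the profile of Ski over the 4 libraries was closest to those of Slc12a9, Ikbkb and 1700081L11Rik. Their Euclidean distances to Ski on centered log2 CPM were 0.0146, 0.0157 and 0.0195. Ikbkb, which encodes a kinase of the NF-κB pathway, was at 181 and 185 CPM in Mock and at 148 and 150 CPM in FeSO4. With 4 libraries, such closeness describes a like fall and little more.

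Short palindromes that SMAD proteins bind were searched in the promoters of the members to show the letters beside the changes. Promoters ran from 250 bases before to 50 bases after the start and came from the RefSeq table (GRCm38.p6), which held 5 of the 10 genes (Tgfbr1 with 2 starts, Tgfbr2, Smad3, Ski and Smurf1). Both palindromes read the same on either strand. GTCTAGAC is in 0.213% of all 32851 promoters of the same length in the table and in none of these. GGCGCC, a GC-rich SMAD site, is in 11.9% of them and in 20.7% of the 11085 promoters that belong to tested genes.

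The 2 matches to GGCGCC, the only ones in these promoters, are shown as 30-base stretches with the motif in capitals. They run 5′ to 3′ on the strand of the gene. Both genes were called lower.
Tgfbr1, upstream start (chr4:47352977-47353006, plus strand): ggctggagtaaaGGCGCCcagcggtgaggg
Ski (chr4:155222738-155222767, minus strand): gcgcgtggatgtGGCGCCgggcccgggcgg

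GGCGCC lay 220 bases before the start of Ski and 233 bases before the upstream start of Tgfbr1. The other promoters, that of the called gene Smurf1 included, held neither palindrome in this window. A match of so few letters describes the sequence and not a bound site.

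A second comparison placed the 10 genes among the rest of the pathway, in 6 lists of 87 genes by role, of which 74 were tested. Of these, 28 were called lower and 12 higher (37.8% and 16.2%, against 9.17% and 10.9% of all tested genes). Each of the 6 lists had fewer genes called lower with no filter on low counts, and likewise without FeSO4 replicate 1. The median log2 fold change of the 74 genes was -0.15. The medians of the lists were all below 0 except that of the genes TGF-β represses. No set was tested as a whole, and these counts describe the lists. The lists were chosen with earlier results of these data known, so an excess over all tested genes is no independent evidence.

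Of the other receptors of the family, 4 of 10 tested genes fell and 0 rose (40% lower). Acvr1b and Acvr1c encode the activin and nodal receptors that, like TGFBR1, act on SMAD2 and SMAD3. Acvr1b was at 85.2 and 92.4 CPM in Mock and at 61.2 and 65.8 CPM in FeSO4 (log2 fold change -0.48, edgeR adjusted p = 0.000345). Acvr1c fell by 0.97 on the log2 scale (adjusted p = 0.00142), from 10.8 and 13.6 CPM to 5.20 and 7.16 CPM. Eng, which encodes the co-receptor endoglin, and Bambi, which encodes a decoy receptor without kinase, fell by 1.08 and 0.82, both from a level under 7 CPM. The call of Bambi was lost without Mock replicate 1 (-0.65, adjusted p = 0.181) and without FeSO4 replicate 1 (-0.71, adjusted p = 0.132). The bone morphogenetic protein receptor genes Bmpr1a and Bmpr2 were not called, at log2 fold changes of -0.14 and -0.11.

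Of the ligands and the proteins that activate them, 7 of 13 genes were tested, 2 fell and 1 rose. Lrrc32 encodes GARP, which holds latent TGF-β on the surface of Treg cells. It fell from 492 and 519 CPM to 335 and 383 CPM (log2 fold change -0.49 ± 0.07, SE, n = 2 per group, edgeR adjusted p = 9.11e-05). Tgfb1 itself was at 489 and 460 CPM in Mock and at 470 and 463 CPM in FeSO4, and the libraries overlapped. Tgfb3 rose by 1.13 on the log2 scale from 2.56 and 1.77 CPM to 5.17 and 4.32 CPM (adjusted p = 0.00678), and its call was lost without Mock replicate 2 (log2 fold change 0.88, adjusted p = 0.0839). Ltbp1, which encodes a latent TGF-β binding protein, was at the edge of detection, with 33 and 21 reads in Mock and 4 and 4 in FeSO4 (adjusted p = 0.0254). Its call was lost with DESeq2 (adjusted p = 0.0548) and without Mock replicate 1, FeSO4 replicate 1 or FeSO4 replicate 2 (edgeR adjusted p = 0.0921, 0.100 and 0.115). Furin, the protease that cleaves the TGF-β precursor, had a log2 fold change of -0.11 (adjusted p = 0.288), which ranged from -0.21 without Mock replicate 1 to -0.025 without Mock replicate 2.

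Of the 17 genes that regulate receptors and SMADs, 7 fell and 2 rose, and 3 fell without Mock replicate 2 or without FeSO4 replicate 1. Smurf2, the partner of Smurf1, was at 104 and 108 CPM in Mock and at 84.6 and 86.1 CPM in FeSO4, a log2 fold change of -0.31 (edgeR adjusted p = 0.00491) against -0.32 for Smurf1. Nedd4l, another ubiquitin ligase for activated SMADs, fell by 0.81 (adjusted p = 7.53e-06), from 59.7 and 67.9 CPM to 36.7 and 36.1 CPM. Tgfbrap1, which encodes a receptor-associated protein, fell by 0.47 (adjusted p = 0.000279). Strap, whose product works with SMAD7, rose by 0.26 (adjusted p = 0.00975), and its call was lost without FeSO4 replicate 1. The other called genes of this list, named after their values were seen, were Rnf111, Tgif1, Pmepa1 and Ldlrad4, which fell by 0.22 to 0.34, and Wwp1, which rose by 0.32. In this list 4 genes rose with the replicate number as a block and 1 with library size only. Fewer rose without any one library except Mock replicate 2. Pmepa1 and Ldlrad4, like Smad7 and Skil, are targets of the signal that restrain it.

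Of the other SMADs and nuclear partners, 5 of 13 tested genes fell and 0 rose, and 3 fell without Mock replicate 2 or without FeSO4 replicate 1. As with the other receptors, 0 rose at an unadjusted p under 0.05 or with DESeq2 or limma-voom either. Foxo3 and Foxo1, forkhead factors that cooperate with SMADs, fell by 0.53 and 0.32 on the log2 scale (edgeR adjusted p = 0.000143 and 0.0025). Ep300, a histone acetyltransferase that SMADs recruit, fell by 0.36 (adjusted p = 0.00313), and Runx1 fell by 0.27 (adjusted p = 0.0177). The call of Runx1 was lost without Mock replicate 2 and without either FeSO4 library, at log2 fold changes of -0.25, -0.28 and -0.27. Crebbp, named after its values were seen, was the fifth.

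The genes that TGF-β induces in T cells did not move as a block: of 18 tested, 8 fell and 4 rose. Sox4 had the largest fall, from 35.6 and 39.6 CPM to 6.39 and 7.16 CPM (log2 fold change -2.47, edgeR adjusted p = 1.19e-09). Klf10, an early target of SMAD signaling, fell by 0.70 (adjusted p = 1.55e-05). Gpr15, a homing receptor for the colon, rose from 5.37 and 7.08 CPM to 24.9 and 25.3 CPM (log2 fold change 2.01, adjusted p = 6.94e-08). Il9 rose by 1.61 (adjusted p = 8.53e-07). The other called genes were named after their values were seen. Foxp3, Itgae, Nt5e, Id3, Spsb1 and Junb fell by 0.19 to 0.59, and Ccr8 rose by 0.57. Tgfbi, the other that rose, was at 5.40 CPM in FeSO4 replicate 2 and at 0.383 to 1.06 CPM in the other libraries, so its groups overlapped. With DESeq2 or with limma-voom, 3 genes of this list rose.

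Of 9 tested genes that TGF-β represses in T cells, 5 rose and 2 fell, and the median log2 fold change was 0.91. Without Mock replicate 2 or without FeSO4 replicate 2, 3 rose, and 1 fell without any one library except FeSO4 replicate 2. Tbx21, the T-bet gene of Th1 cells, rose by 1.79 from 1.48 and 1.32 CPM to 5.58 and 4.13 CPM (edgeR adjusted p = 0.000412). Ifng and Il4, the cytokine genes whose proteins the medium blocked, rose by 1.69 and 2.27 (adjusted p = 6.56e-05 and 0.000263), each from under 4 CPM. Klf2, a factor of quiescent T cells, fell by 0.51 from 270 and 257 CPM to 165 and 206 CPM (adjusted p = 0.000411). Gzmb and Fasl, named after their values were seen, were the other 2 that rose, and with DESeq2 only 3 of the 5 passed. Gata3 was the other that fell. The stromal and endothelial markers summed to 55.7 and 59.3 CPM in Mock and to 41.0 and 47.9 CPM in FeSO4, nearly all from Pecam1, which T cells also use. The erythroid and platelet markers summed to 26.0 and 20.9 CPM in Mock and to 38.4 and 33.2 CPM in FeSO4, nearly all from the globin gene Hba-a1, whereas the platelet marker Itga2b was at 1.01 and 1.10 CPM in Mock and at 0.817 and 0.567 CPM in FeSO4. These moved with the groups, and their part in the results above was not tested.

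**Figure D4:**
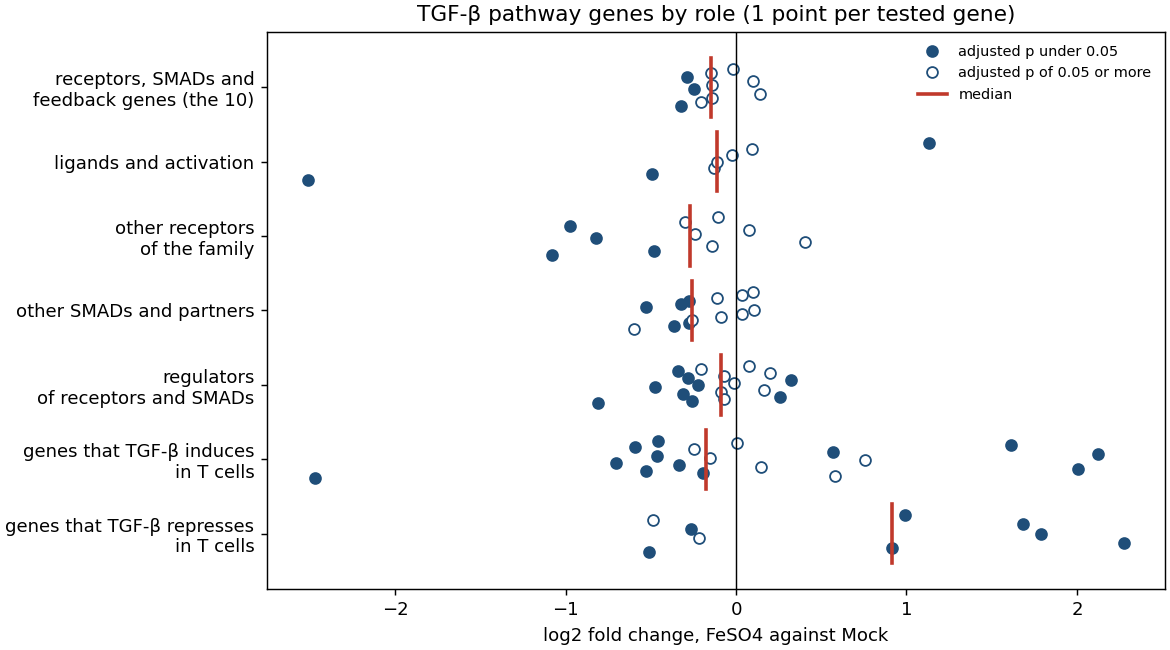
Log2 fold change (FeSO4 against Mock) of every tested gene of the pathway by role, 1 point per gene, filled where the adjusted p was under 0.05, with a red bar at each list's median. The 10 core genes sit between -0.32 and 0.14, a narrower range than any of the 6 lists.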

How the data were processed

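RNA was sequenced from 2 Mock and 2 FeSO4 iTreg cultures. The deposited file held raw read counts per Ensembl gene, which the authors had not normalized. The methods name STAR with mm9 and DESeq, whereas the submitters' processing notes name mm10, Trim Galore 0.6.7, STAR 2.7.9a and featureCounts. The annotation and strand setting are not given in the sources used here. Of the gene IDs, 14930 are absent from the mm9 annotation GENCODE M1, so positions are given in GRCm38 (mm10) from RefSeq. Symbols came from GENCODE M1 by Ensembl ID. Exon lengths are the merged exons of GENCODE M1. No exon of the 10 genes overlaps another gene there. The 5 rows of reads not assigned to a gene (15.9 to 17.3% of reads) were left out. They carry the names that htseq-count uses, although the notes name featureCounts, so the program that made the counts is not settled. No column of another sample was present.

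The test was made with edgeR 4.0.16 (R 4.3.3): filterByExpr by group (13732 genes), TMM, and the quasi-likelihood F test (legacy = FALSE) without a block, adjusted by Benjamini-Hochberg over all genes tested and called under 0.05. The SE is the log2 fold change divided by the square root of F. The biological coefficient of variation was 8.24%. Alternatives were other scalings and filters, DESeq2 1.42.0, limma-voom (limma 3.58.1), the older quasi-likelihood method, the replicate number as a block, the threshold of the study (p below 0.05 before adjustment and a log2 change of 0.5 or more either way) and each library left out. All 10 genes are named, and from each list up to 4 genes of smallest p. Log2 CPM for likeness used a prior count of 2. The members, lists and tests were chosen with earlier results of these data known, so changes already seen, such as those of Foxp3 and Sox4, are no independent evidence. Libraries of a group differed by more than sampling noise (chi-square per degree of freedom 11.4 for Mock and 9.35 for FeSO4). Limits from a count of 0 cover counting error only. A search of the promoters for a shorter SMAD motif is not reported here.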

Additional observations from a re-analysis of the deposited data

Results flagged for a closer look

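Both results here concern reads outside the gene counts, in which both FeSO4 libraries lay above both Mock libraries. The share of multiply aligned reads was 4.42% and 4.27% in the Mock libraries, whereas FeSO4 reached 4.60% and 4.62%, so that the group means lay 0.264 percentage points apart. For reads discarded for low alignment quality, Mock stood at 0.802% and 0.929% and FeSO4 at 0.978% and 0.988%, with means 0.118 percentage points apart. Groups of 2 libraries are too small to test a single library as an outlier. The share of reads in no annotated gene lay the other way, at 5.31% and 6.03% in Mock and 4.36% and 5.21% in FeSO4. None of these differences was tested.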

How the results depend on the processing

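The older quasi-likelihood method was added after the data were seen, and it changed the call or the sign of none of the 10 genes. The signs of the 10 held under every scaling, filter and test. With library size only, the number of all genes called higher was 980 (lower 1810), 6 of the 10 were called lower, 1 regulator was called higher, and the median of the 10 was -0.21, while the median of all genes moved by less than 0.1 under any scaling (-0.066 here). That scaling also brought Tgfbr2 (-0.21), Smad7 (-0.21) and Skil (-0.27) past the threshold. Skil passed with the upper quartile (-0.22) and with at least 10 counts in every library (-0.21) too.

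With no filter on low counts, 524 genes were called higher and 304 lower, and of the 10 genes 1 was called lower, with Tgfbr1 (-0.24) and Smurf1 (-0.32) losing their calls. The lists then had 0 ligands higher and 1 lower, 1 other receptor lower, 1 other SMAD or partner lower, 0 regulators higher and 2 lower, 4 induced genes lower, and 3 repressed genes higher and 0 lower. With the threshold of the study, 641 genes were called higher and 787 lower, and of the 10 genes 0 were. The lists then had 1 ligand, 1 other SMAD or partner, 1 regulator, 4 induced genes and 1 repressed gene lower, and 0 regulators higher. With at least 10 counts in every library or with DESeq2, 1 ligand was called lower, and with DESeq2 3 repressed genes were called higher. With DESeq2 or with limma-voom, 3 induced genes were called higher.

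The same-numbered libraries deviated from their group means with a correlation of 0.0293 over 13732 genes. So low a correlation cannot show that the libraries are unpaired. The methods describe pairs, but the labels do not say that equal numbers mark them, so the main fit used no block. With the replicate block, 1847 genes were called higher and 1580 lower, 4 regulators were called higher, and Skil (-0.20) passed the threshold.

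With each library left out in turn, the number of all genes called was 926 to 1155 higher and 751 to 1060 lower, with the lowest counts without Mock replicate 2. Of the 10 genes, 2 to 4 were called lower. The counts were 0 to 1 ligands higher and 1 to 2 lower, 3 to 4 other receptors lower, 3 to 6 other SMADs and partners lower, 3 to 4 induced genes higher and 7 to 8 lower, 1 to 2 regulators higher and 3 to 5 lower, and 3 to 5 repressed genes higher and 1 to 2 lower. The median of the 10 ranged from -0.19 to -0.12. Log2 fold changes ranged from -0.34 to -0.16 for Tgfbr1, -0.37 to -0.28 for Smurf1 and -0.32 to -0.093 for Skil, which was called without Mock replicate 1 and without FeSO4 replicate 2. Those of Tgfbr3 (-0.10 to 0.28) and Smad3 (-0.097 to 0.057) changed sign, as did the difference in the Smad7 to Smad4 log2 ratio (-0.063 to 0.065). Of 298 values for the 23 named pathway genes that were called, 276 kept their call and direction, 22 lost the call and 0 reversed. The cause of these changes was not tested. A lone library left in a group was assumed to vary like the other group.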

Other observations

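Several members of the TGF-β family were at or near 0 reads in every library and were not tested. Tgfb2 had at most 1 read, Inhbb and Bmpr1b had none, and Smad9 had at most 1. Inhba, which encodes the activin A subunit, had 4 and 4 reads in Mock and none in FeSO4. Itgb8, which encodes an integrin chain that releases active TGF-β, had 2 and 10 reads in Mock and none in FeSO4. Among the SMADs of the bone morphogenetic protein branch, Smad1 was at 15.5 to 18.9 CPM and Smad5 at 30.8 to 41.2 CPM. Smad6, the inhibitory SMAD of that branch, stayed at 1.16 to 1.65 CPM, far below Smad7.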
